A study of Mus musculus with 4 samples.

Results

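The 10 genes described here belong to 3 peptide systems that set vascular tone and permeability: the receptor activity-modifying proteins Ramp1, Ramp2 and Ramp3 with the receptor Calcrl and its ligand adrenomedullin (Adm), the renin-angiotensin genes Agt, Agtr1a and Ace, and the endothelins Edn1 and Edn2. They were chosen from a table of 18193 genes, by gene symbol, with earlier results of the same arrays known, and among those results the high signal of Ramp3 and the low signal of Agt after fibroblast growth factor 2 (FGF2) were already seen. The choice therefore used all 4 arrays, and the values below are a description with no test. All 10 genes were on the array, with 16 probe sets annotated to 1 symbol each. A further 2 probe sets carried the symbols of both Ramp2 and Vps25 and were not assigned to either.

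The samples were primary cells of mouse intestine, grown from crypts on fibronectin and labelled as epithelial. There were 4 groups of 1 Affymetrix array each: untreated cells, cells given interleukin-17A (IL-17A) at 50 ng/ml for 6 h, cells given FGF2 at 5 ng/ml for 6 h, and cells given both for 6 h. The strain, the age of the animals, whether cells were pooled and the time at which untreated cells were harvested were not given in the sources used here. The series asks, by its title, how FGF2 and IL-17A act together in repair of the intestinal epithelium.

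Calcrl is a G protein-coupled receptor that needs a RAMP as partner. With Ramp1 it forms the receptor for calcitonin gene-related peptide (CGRP), and with Ramp2 or Ramp3 it forms adrenomedullin receptors, which signal mainly through cyclic AMP. Adrenomedullin and its receptor with Ramp2 are known for their part in blood and lymphatic endothelium. Angiotensinogen, the product of Agt, is cut by renin and then by Ace to angiotensin II, which acts on the receptor Agtr1a. Endothelins are small peptides, first described as products of endothelium, and Edn2 is also made by intestinal epithelium.

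Promoter sequences are shown for the 4 genes that differed at least 2-fold from untreated cells on some array, since Ramp1 and Edn2 stood lower together while Ramp3 and Agt went opposite ways. Each line gives the 250 bases before the annotated start, 5′ to 3′ on the gene's own strand, from the RefSeq table of build GRCm38.p6, which held 8 of the 10 genes. Capitals mark matches, on either strand, to 8 short motifs. The windows are chr11:6658283-6658532 (plus strand) for Ramp3, chr8:124569707-124569956 (minus strand) for Agt, chr1:91179572-91179821 (plus strand) for Ramp1 and chr4:120160956-120161205 (plus strand) for Edn2.
Ramp3: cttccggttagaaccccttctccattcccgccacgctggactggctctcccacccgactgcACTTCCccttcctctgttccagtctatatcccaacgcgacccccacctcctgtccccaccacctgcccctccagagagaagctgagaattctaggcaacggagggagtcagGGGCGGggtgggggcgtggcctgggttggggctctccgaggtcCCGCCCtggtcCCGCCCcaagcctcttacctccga
Agt: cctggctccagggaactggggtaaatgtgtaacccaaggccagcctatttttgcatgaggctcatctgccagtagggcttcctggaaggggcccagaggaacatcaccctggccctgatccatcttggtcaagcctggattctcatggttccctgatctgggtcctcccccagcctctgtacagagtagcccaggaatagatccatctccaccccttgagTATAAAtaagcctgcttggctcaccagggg
Ramp1: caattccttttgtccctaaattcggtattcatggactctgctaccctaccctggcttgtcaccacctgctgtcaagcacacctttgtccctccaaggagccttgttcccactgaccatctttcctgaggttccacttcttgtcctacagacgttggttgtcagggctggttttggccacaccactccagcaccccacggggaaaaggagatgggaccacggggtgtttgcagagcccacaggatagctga
Edn2: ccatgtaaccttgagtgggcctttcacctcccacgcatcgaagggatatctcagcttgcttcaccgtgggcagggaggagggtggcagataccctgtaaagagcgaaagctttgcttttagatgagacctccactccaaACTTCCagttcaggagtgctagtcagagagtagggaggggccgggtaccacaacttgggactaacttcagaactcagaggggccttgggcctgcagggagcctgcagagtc

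In the Ramp3 window the GC box, spelled GGGCGG, matched 3 times, at 78 to 73, 35 to 30 and 24 to 19 bases before the start, and the ETS element, spelled GGAAGT, matched once on the opposite strand at 189 to 184 bases. The Agt window held 1 match, a TATA box spelled TATAAA at 30 to 25 bases before the start. The Edn2 window held 1 match to the ETS element, on the opposite strand at 111 to 106 bases, and the Ramp1 window held 0 matches. The 5 motifs without a match in these 4 windows were the AP-1 element TGACTCA, the cyclic AMP response core TGACG, the hypoxia response core ACGTG, the C/EBP element TTGCNNAA and the NF-kB element GGANTTTCC. Of 32851 promoter windows of the same length, 32.7% held the GC box, 19.7% the ETS element, 12.4% the TATA box, 4.46% the AP-1 element, 17.8% the cyclic AMP core, 16.6% the hypoxia core, 9.56% the C/EBP element and 1.07% the NF-kB element. The GC box and the ETS element were thus common sequences, and a match describes the letters of the window only.

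Signals are MAS5 values, given on the linear scale. A floor was set at a signal of 89.8 (log2 6.49), the median over all arrays, and dimmer signals were raised to it before any ratio, so a ratio with 1 floored signal is a lower bound. A gene over the floor on at least 1 array is called measured, which held for 12258 genes and for all 10 described here. Each gene is represented by its brightest probe set, judged by mean log2 signal, and its other probe sets are given beside it. Of the 16 probe sets, 10 were over the floor on all arrays, 3 on some arrays and 3 on none.

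With 1 array per group there is no replicate error. As a yardstick, the interaction of both factors (log2 combined − IL-17A − FGF2 + untreated), was treated as if it were error only. The standard deviation it implies for a log2 ratio was 0.29 where a gene's log2 signal averaged under 8, 0.20 from 8 to 10 and 0.13 from 10 to 12. Real interaction widens this yardstick, and signals raised to the floor narrow it. Probe sets of 1 gene, all over the floor, gave log2 ratios with a within-gene standard deviation of 0.21 to 0.25 over 4676 genes.

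**Figure D1:**
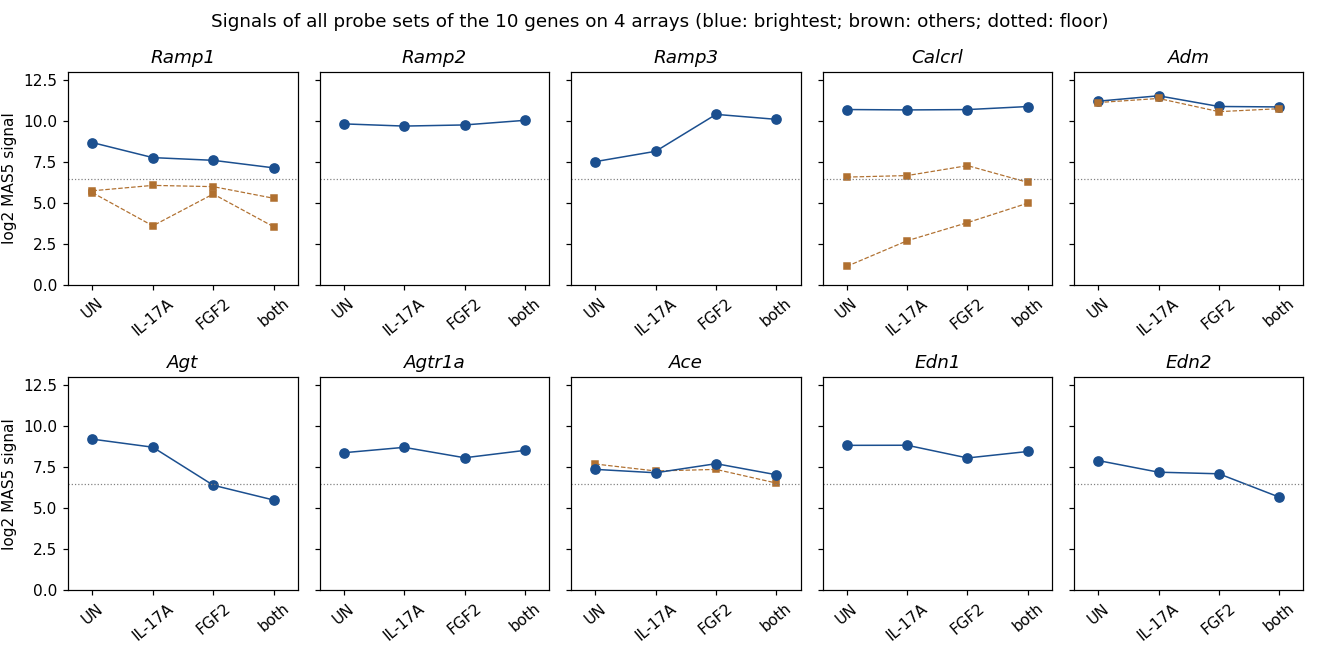
Each panel plots the log2 MAS5 signal (vertical axis) of every probe set of 1 gene on the arrays of untreated cells (UN) and of cells given IL-17A, FGF2 or both. Blue circles mark the brightest probe set and brown squares the others, and the dotted line is the floor at log2 6.49. Ramp3 is high on both arrays with FGF2, Agt is under the floor on both, and Ramp2 and Calcrl lie nearly flat in their brightest probe sets.

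Among the RAMPs, the FGF2 arrays stood apart for Ramp3. Ramp3, the partner that turns Calcrl into a receptor for adrenomedullin, had a signal of 184 in untreated cells, 285 with IL-17A, 1357 with FGF2 and 1099 with both. Both arrays with FGF2 were far above both arrays without it. The log2 ratio was 2.88 for FGF2 against untreated (7.38-fold). For both factors against IL-17A it was 1.95 (3.86-fold). These 2 comparisons share no array. IL-17A alone gave a smaller ratio, 0.63 (1.55-fold), against a yardstick of 0.20. That yardstick goes by the mean log2 signal over all arrays, 9.05 for Ramp3, which the arrays with FGF2 raise. Untreated and IL-17A cells were dimmer, at log2 7.52 and 8.15, and the yardstick for genes averaging under 8 was 0.29. Raising the floor to the 75th percentile of signals left a ratio of 0 for IL-17A alone. In the presence of FGF2 the ratio for IL-17A was −0.30. The combined array therefore lay below the FGF2 array. The interaction was −0.94, against a standard deviation of 0.29 for the interaction of genes of like mean brightness. For genes averaging under 8 that standard deviation was 0.41. Ramp3 had 1 probe set, whose design covers several transcripts of the gene, so no other probe set could be set beside it. In a mixed culture, more cells of a type and more RNA per cell cannot be told apart.

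Ramp1, the partner that makes Calcrl a receptor for CGRP, went the other way. Its signal was 411 in untreated cells, 218 with IL-17A, 194 with FGF2 and 141 with both. The untreated array was the highest and the combined array the lowest. The log2 ratios against untreated were −0.92 for IL-17A (1.89-fold lower), −1.08 for FGF2 (2.12-fold lower) and −1.54 for both (2.91-fold lower), with a yardstick of 0.29. Each factor added to the other gave a further lower signal, with −0.63 for FGF2 on top of IL-17A and −0.46 for IL-17A on top of FGF2. The other 2 Ramp1 probe sets were under the floor on every array, with signals from 11.7 to 67.3, and give no ratio. Averaging all 3 probe sets after flooring gave −0.36 for FGF2 and −0.51 for both against untreated. The ratio for FGF2 was also inside 2-fold with the arrays centred on their medians (−0.99), with the floor added to each signal (−0.82) and as the mean of both pairs of arrays (−0.85).

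Ramp2, the partner most tied to adrenomedullin signalling in vessels, had signals of 908 in untreated cells, 827 with IL-17A, 868 with FGF2 and 1055 with both. The arrays lay within 1.28-fold of each other, a range of 0.35 on the log2 scale against a yardstick of 0.20. Its ratio for FGF2 against untreated was −0.06. Of the 2 probe sets shared with Vps25, 1 had signals of 1270 in untreated cells, 1272 with IL-17A, 1213 with FGF2 and 938 with both, and the other 1796, 1936, 1711 and 1626. Both shared probe sets were lowest on the combined array, where the probe set of Ramp2 alone was highest.

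The receptor Calcrl had signals of 1665 in untreated cells, 1638 with IL-17A, 1662 with FGF2 and 1891 with both. Its brightest probe set spanned 1.15-fold, the narrowest range among the 10 genes, and the ratio for FGF2 against untreated was −0.0026. A dimmer Calcrl probe set had signals of 95.6, 102, 155 and 76.4 in the same order, and a log2 ratio of 0.70 for FGF2 against untreated, so the 2 probe sets disagreed there. The third Calcrl probe set was under the floor on every array.

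Adrenomedullin, the ligand, was highest with IL-17A and lower on both arrays with FGF2. The signals of Adm were 2369 in untreated cells, 2979 with IL-17A, 1894 with FGF2 and 1859 with both. A second probe set, of a type that can bind related sequences, gave 2235, 2662, 1523 and 1726. In each probe set the arrays without FGF2 were above those with it. The log2 ratios of the brighter probe set were 0.33 for IL-17A and −0.32 for FGF2 against untreated, with a yardstick of 0.13. FGF2 on top of IL-17A gave −0.68 (1.60-fold lower), and −0.63 in the second probe set. IL-17A on top of FGF2 gave −0.03, and 0.18 in the second probe set, a difference of sign between them.

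In the renin-angiotensin group, Agt was the gene set apart by FGF2. Agt had signals of 594 in untreated cells, 422 with IL-17A, 84.6 with FGF2 and 45.3 with both. Both arrays with FGF2 were under the floor of 89.8, and both arrays without it were far over. The fold is therefore a lower bound: at least 6.62-fold lower with FGF2 and with both than in untreated cells, and at least 4.71-fold lower with both than with IL-17A. On the log2 scale this bound was −2.73 for FGF2 against untreated. IL-17A alone gave −0.49 (1.41-fold lower) with a yardstick of 0.29. Both floored signals leave IL-17A on top of FGF2 without a ratio. Agt had 1 probe set. The size of its difference rested on the floor: with the floor at the 25th percentile of signals, both against untreated was −3.71, and at the 75th percentile −0.35, inside 2-fold.

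Agtr1a, the receptor for angiotensin II, had signals of 335 in untreated cells, 420 with IL-17A, 270 with FGF2 and 370 with both. Each array with IL-17A was above its counterpart without it, by log2 ratios of 0.33 against untreated and 0.45 against FGF2, with a yardstick of 0.20. FGF2 gave −0.31 against untreated and −0.18 on top of IL-17A. All of these were under 1.5-fold.

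Ace, the converting enzyme, which is also a peptidase of the brush border, was dim, and its probe sets disagreed. The brighter had signals of 166 in untreated cells, 143 with IL-17A, 211 with FGF2 and 132 with both. The other gave 208, 155, 165 and 92.6. Both were lowest on the combined array. For FGF2 against untreated the ratio was 0.35 in the first and −0.33 in the second, and for both against untreated −0.33 and −1.17. The direction for FGF2 alone is therefore unsettled.

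The endothelins differed from each other. Edn1, the form typical of endothelium, had signals of 457 in untreated cells, 459 with IL-17A, 268 with FGF2 and 353 with both. The arrays with FGF2 were the lower pair, with log2 ratios of −0.77 for FGF2 against untreated (1.71-fold lower) and −0.38 on top of IL-17A, and a yardstick of 0.20. IL-17A gave 0.01 against untreated and 0.40 on top of FGF2.

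Edn2 had signals of 241 in untreated cells, 147 with IL-17A, 137 with FGF2 and 51.1 with both. The order of the arrays was the same as for Ramp1. It was also that of Agt before flooring, but Agt was under the floor on both arrays with FGF2. The log2 ratios against untreated were −0.71 for IL-17A and −0.81 for FGF2, with a yardstick of 0.29. The combined array was under the floor, at least 2.68-fold lower than untreated cells. Edn1 and Edn2 had 1 probe set each.

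**Figure D2:**
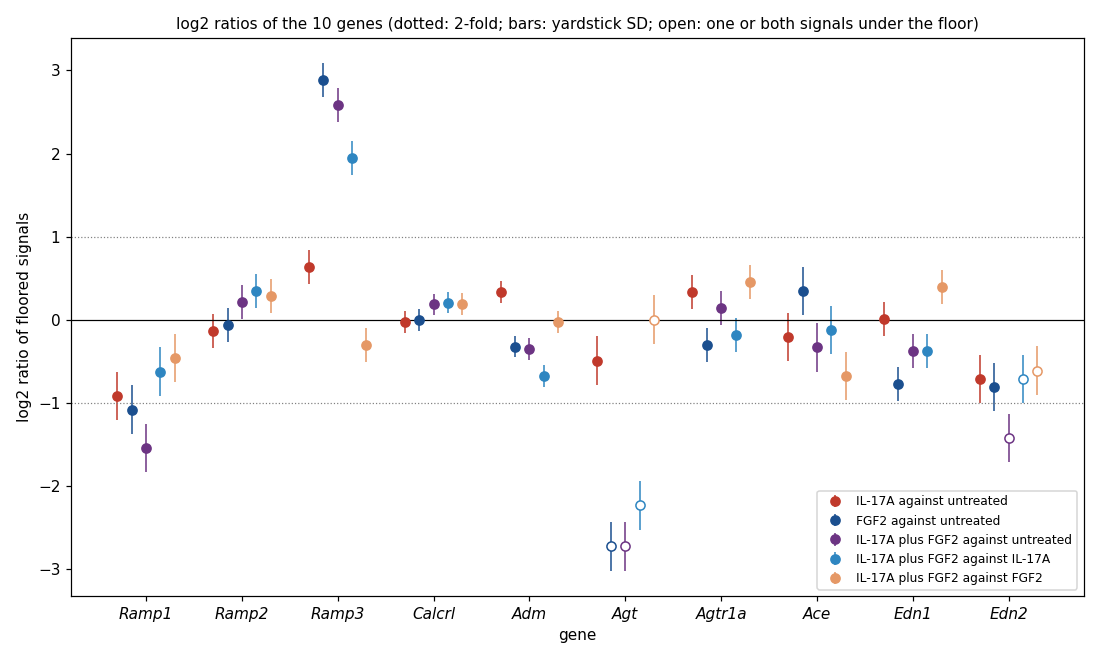
The log2 ratio of floored signals (vertical axis) is plotted for each gene (horizontal axis) in 5 comparisons, 1 colour each, with bars of 1 yardstick standard deviation and dotted lines at 2-fold. Open circles have a signal under the floor on 1 or both arrays. Ramp3 lies from 1.95 to 2.88 in the 3 comparisons that add FGF2, Agt from −2.23 to −2.73, and no gene passes 2-fold in the 2 comparisons that add IL-17A alone.

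By count, 1 of 10 genes was at least 2-fold higher with FGF2 than in untreated cells (Ramp3) and 2 were lower (Ramp1 and Agt). In this comparison the shares of all measured genes past 2-fold were 0.473% upward and 0.963% downward. With both factors against untreated, Ramp3 was higher and 3 genes were lower (Ramp1, Agt and Edn2), where the shares over all measured genes were 0.906% and 1.73%. With both against IL-17A, 1 gene was higher (Ramp3) and 1 lower (Agt), where the shares were 0.547% and 0.857%. With IL-17A against untreated, 0 of 10 genes passed 2-fold either way, where 0.375% and 0.228% of measured genes did. The same count of 0 held for both against FGF2, with 0.367% and 0.269%. Since the genes were chosen with these ratios known, nothing is read from the counts against these shares.

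The median log2 ratio of the 10 genes was −0.31 for FGF2 against untreated, −0.34 for both against untreated and −0.28 for both against IL-17A. Over all measured genes these medians were −0.01, 0.00 and 0.00. For IL-17A against untreated the 10 genes had a median of −0.08, and for both against FGF2 −0.01, where all measured genes were at −0.01 and 0.00. Centring the arrays on their medians moved the median of measured genes by 0.14 for both against untreated and by 0.12 for both against IL-17A. It also moved the numbers of all measured genes past 2-fold upward and downward: from 58 and 118 to 76 and 88 for FGF2 against untreated, from 111 and 212 to 145 and 160 for both against untreated, and from 67 and 105 to 94 and 78 for both against IL-17A.

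**Figure D3:**
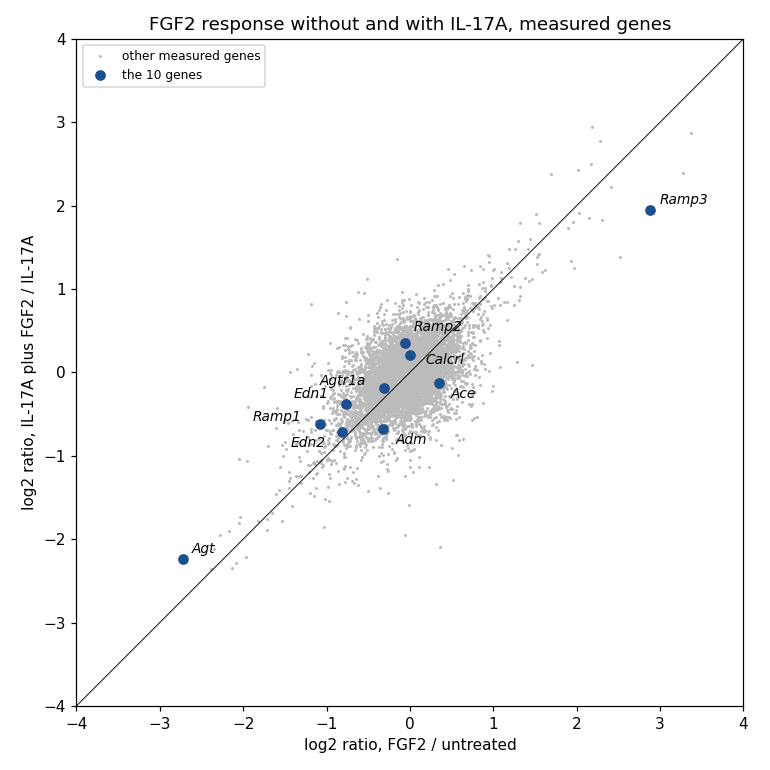
Each point is a measured gene, placed by its log2 ratio for FGF2 against untreated (horizontal axis) and for both factors against IL-17A (vertical axis), pairs that share no array, with the 10 genes in blue and the line of equality drawn. Ramp3 lies at 2.88 and 1.95, below the line, Agt at −2.73 and −2.23, both lower bounds in size, and Ramp2 and Calcrl lie near the origin.

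Signals most like those of the 3 genes with the widest range of floored signals were looked for among all measured genes. The measure was the root mean square difference of floored and centred log2 signals over the 4 arrays. For Ramp3 the nearest were Trbv1 (0.23), the stromelysin gene Mmp3 (0.25), Sptssb (0.28), the G protein regulator Rgs1 (0.29) and the urea transporter Slc14a1 (0.32). Mmp3, for example, had signals of 2373 in untreated cells, 3529 with IL-17A, 12604 with FGF2 and 16516 with both. For Agt they were Igf1 (0.14), the retinaldehyde dehydrogenase gene Aldh1a1 (0.18), Rims1 (0.19), Itih5 (0.23) and Pdlim3 (0.24). Igf1 had signals of 2466, 1968, 485 and 452. For Ramp1 they were Upk3bl (0.03), the dipeptidase gene Dpep1 (0.06), the phosphatase gene Ptprr (0.07), the clone gene 1810065E05Rik (0.07) and Edn2 (0.10). Dpep1 had signals of 468, 275, 242 and 166, in the same order of arrays as Ramp1. Raised signals enter these values: those of Agt on both arrays with FGF2, of Edn2 on the combined array, and of Slc14a1, Rims1 and Pdlim3 on some arrays. The likeness of these genes therefore rests in part on the floor. With 4 arrays such likeness is a description of these arrays only.

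Other genes of the same systems came from lists of ligands, receptors, enzymes and downstream steps. Of 68 listed names, 4 of them older names of genes also listed under the current one, 58 had a probe set of their own and 44 were measured. In these 44, 1 was at least 2-fold higher with FGF2 than in untreated cells and in both against IL-17A, and 0 were lower. Over all measured genes, 0.473% were higher and 0.963% lower for FGF2, and 0.547% and 0.857% for both against IL-17A. With only 1 gene of 44, nothing is read against these shares. In the other 3 comparisons 0 were 2-fold different. The 1 gene was Calcb, which encodes the beta form of CGRP, a ligand of Calcrl with Ramp1. Calcb had signals of 349 in untreated cells, 240 with IL-17A, 744 with FGF2 and 551 with both. Both arrays with FGF2 were above both without, with log2 ratios of 1.09 against untreated (2.13-fold) and 1.20 on top of IL-17A (2.30-fold), and a ratio of −0.54 for IL-17A alone. The ligand Calcb and its co-receptor Ramp1 thus lay on opposite sides of untreated cells on the FGF2 array.

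By list, the median log2 ratio for FGF2 against untreated was −0.00049 for 4 calcitonin family ligands and processing enzymes, −0.02 for 6 receptors that pair or compete with RAMPs, 0.0015 for 5 renin-angiotensin enzymes and −0.04 for 3 angiotensin receptors and partners. It was −0.02 for 4 endothelin genes, 0.31 for 5 natriuretic peptide genes, 0.31 for 3 kinin genes and 0.03 for 14 downstream steps of cyclic nucleotide and nitric oxide signalling. The median of all 44 was −0.0096, beside −0.01 over all measured genes. 

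Among receptors, Ackr3, which takes up adrenomedullin without G protein signalling, had signals of 3485 in untreated cells, 3831 with IL-17A, 4468 with FGF2 and 5346 with both. It was highest on the combined array, with a log2 ratio of 0.62 against untreated, and its probe set can also detect related transcripts. The calcitonin receptor Calcr, another partner of the RAMPs, was under the floor on every array, as was the angiotensin receptor Agtr2. Agtr1b, the close paralog of Agtr1a, was over the floor at 120 and 94.9 without FGF2 and under it at 58.5 and 32.3 with it. The endothelin receptor Ednrb had signals of 4221, 3956, 4142 and 3692, and its 3 probe sets were all lowest on the combined array. Ece1, which releases mature endothelins, had signals of 1297, 1140, 1172 and 1260 on the same arrays, with a log2 ratio of −0.19 for IL-17A and −0.15 for FGF2 against untreated. A dimmer Ece1 probe set had 188, 195, 228 and 197, with 0.05 for IL-17A and 0.27 for FGF2, so the 2 probe sets differed in sign. Ren1, Ednra and Calca were not analysed here.

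Markers of several cell types were on every array, so the cells that gave these signals are not fixed by the label. All 7 general epithelial markers were measured, with summed signals of 113411 to 120997, in which the keratin gene Krt8 had 24796 to 28156. All 13 endothelial markers were measured, with summed signals of 12060 in untreated cells, 11096 with IL-17A, 15350 with FGF2 and 16643 with both. Their median log2 ratio was 0.34 for FGF2 and 0.45 for both against untreated, and 12 and 11 of the 13 were above 0. Of all measured genes, 46.1% and 48.2% were above 0 in these comparisons. Over the same arrays Calcrl stood at −0.0026 and 0.18 and Ramp2 at −0.06 and 0.22. The endothelial gene Cdh5 had 1353 in untreated cells and 1715 with FGF2. Of the lymphatic markers 5 of 6 were measured, with summed signals of 7744 in untreated cells, 8539 with IL-17A, 14019 with FGF2 and 16183 with both, much of it from Pdpn, which fibroblasts also make. The lymphatic regulator Prox1 was over the floor only with FGF2 alone, at 103. The part of these cells in the signals of Ramp3, Ramp2, Calcrl and Edn1 was not tested.

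All 8 fibroblast markers were measured, with summed signals of 54462, 57872, 41586 and 44110 in the same order, and a median log2 ratio of −0.48 for FGF2 against untreated. All 9 smooth muscle and pericyte markers were measured, with sums of 38452, 39005, 27587 and 25813 and a median of −0.74. Both lists were lower on the arrays on which Agt was under the floor. Within the fibroblast list Pdgfra had 4992 in untreated cells and 2340 with FGF2, and Dcn had 10810 and 12918. Enterocyte markers, of which 6 of 10 were measured, had sums of 21997, 11305, 17250 and 8416, and medians of −0.51 for FGF2 and −1.51 for both against untreated. All 6 were below 0 for IL-17A against untreated, where 52.8% of all measured genes were. Apoa1, at 12845, 6771, 10645 and 5006, made up most of the sum. Slc26a3, at 740, 349, 287 and 193, and Anpep, at 126, 94.2, 85.0 and 57.5, had the order of Ramp1 and Edn2, which were lower with FGF2 than with IL-17A. The other 4 measured enterocyte markers were lower with IL-17A than with FGF2. The order of Ramp1 and Edn2 rests on gaps smaller than the yardstick of 0.29. Against untreated, IL-17A and FGF2 gave −0.92 and −1.08 for Ramp1, and −0.71 and −0.81 for Edn2. Anpep was under the floor on both arrays with FGF2. Nothing is read from this order. Macrophage sums lay from 2807 to 3219, with 5 of 6 measured, and glial sums from 859 to 1318, with 3 of 4 measured. The share of these lists in the values of Agt, Ramp1, Ace and Edn2 was not tested.

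**Figure D4:**
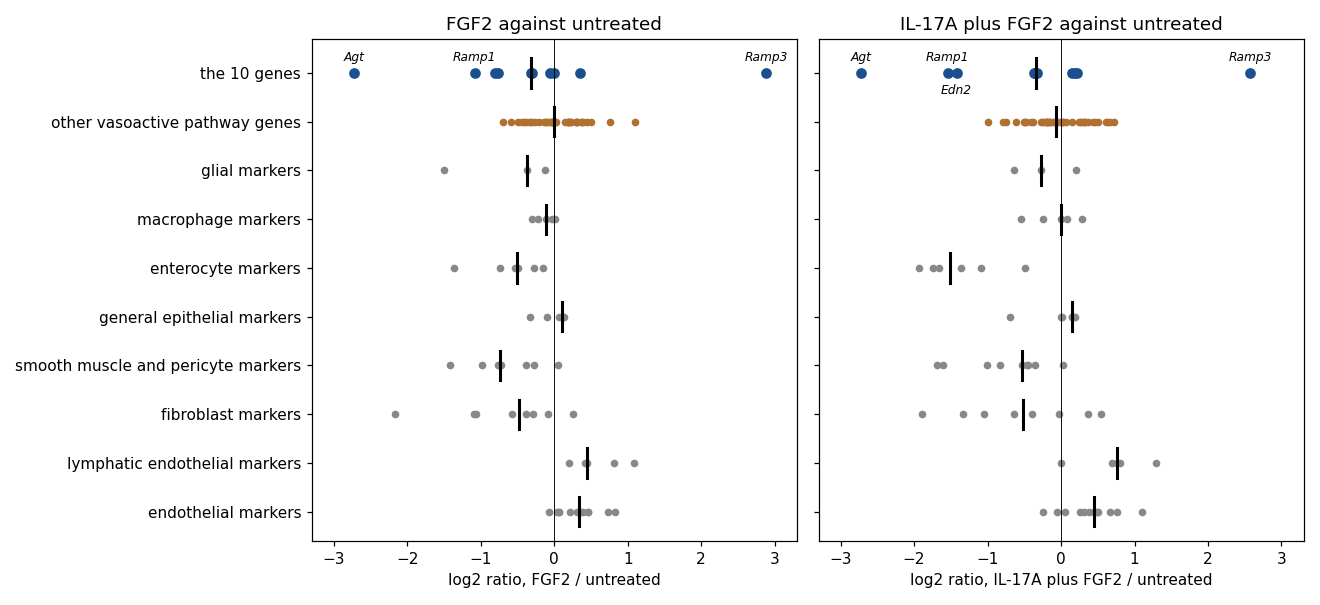
Log2 ratios for FGF2 against untreated (left) and for both factors against untreated (right) are plotted for each measured gene (points) of the 10 genes in blue, the other genes of their pathways in brown and 8 marker lists in grey, with a black bar at each median. Endothelial markers centre at 0.34 and 0.45 and fibroblast markers at −0.48 and −0.51, while Ramp3 and Agt lie outside all lists on the left.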

How the data were processed

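RNA from primary intestinal cells was measured on 4 arrays, 1 per group. The authors deposited log2 signals, summarised with MAS5 per the submitters' processing notes, with no version given in the sources used here. Back on the linear scale, the deposited signals of each array average 500 once 2% at either end is trimmed, as arrays scaled to 1 target would. MAS5 subtracts mismatch probes, which makes dim signals noisy, and detection calls were not used here.

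Of 45101 probe sets, 64 controls were left out, and 34945 had 1 symbol in the platform annotation. All 10 genes matched the GRCm38.p6 gene table by Entrez identifier. Ratios are differences of floored log2 signals, and no test or p-value was computed across genes or samples. The number of arrays limits the precision. The members and gene lists were chosen with earlier results of these data known. Named genes were the 10 members, listed genes at least 2-fold different in any comparison, and 9 listed receptors and enzymes by level. The 5 nearest patterns of the 3 members with the widest range of floored signals were also named. Alternatives were 2 other scalings, 3 other floor settings, 2 other choices of probe set, a further 1 chosen after seeing the data, thresholds of 1.5-fold and 3-fold, and the mean of both pairs of arrays for a factor. Python 3.11.15, numpy 2.4.6, pandas 2.3.3, scipy 1.17.1 and matplotlib 3.10.9 were used, and the calculations were tested on simulated data. The changed genes in that simulation stayed over the floor, so it did not try changed genes with a floored signal.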

Additional observations from a re-analysis of the deposited data

Results flagged for a closer look

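For 7 of 20 readings of a factor, the log2 ratio had opposite signs in its 2 pairs of arrays, and these differences were not tested. The same share over all measured genes is not given here, so nothing is read from this count. For FGF2, Ramp2 stood at 0.35 in the presence of IL-17A and −0.06 without it, Calcrl at 0.21 and −0.0026, and Ace at −0.12 and 0.35. For IL-17A, Ramp3 stood at −0.30 in the presence of FGF2 and 0.63 without it, and Ramp2 at 0.28 and −0.13. Calcrl stood at 0.19 with FGF2 present and −0.02 without it, and Adm at −0.027 and 0.33. Only for Ramp3 were both readings larger than the yardstick, 0.20 for genes of its mean brightness over all arrays. Its reading of 0.63 came from the 2 dimmer arrays and was 0 under the 75th percentile floor.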

How the results depend on the processing

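The count of genes at least 2-fold different was 0 for IL-17A against untreated, 3 for FGF2, 4 for both, 2 for both against IL-17A and 0 for both against FGF2. With the floor at the 75th percentile, which left 5 of 10 genes measured, the counts for FGF2, for both, and for both against IL-17A were 1 each. Of all measured genes, 0.772%, 1.52% and 0.812% then passed 2-fold, either direction. The floor at the 25th percentile gave 1 for both against FGF2 and 3 for both against IL-17A. There 3.4% and 4.34% of all measured genes passed. For FGF2 against untreated, centring on medians, adding the floor and averaging probe sets gave 2 each. The shares over all measured genes were 1.34%, 0.799% and 1.01%. Averaging probe sets gave 3 for both against untreated, where the share was 1.98%. A 1.5-fold threshold gave 3 for IL-17A, 5 for FGF2, 5 for both against IL-17A and 2 for both against FGF2, and a 3-fold threshold gave 2 for both against untreated. Of all measured genes, either direction, 3.39%, 7.16%, 6.89% and 3.88% passed 1.5-fold in those comparisons and 0.71% passed 3-fold in the last. Without probe sets open to related transcripts, which removed Ramp3, Calcrl and Edn1, both against IL-17A gave 1. FGF2 against untreated then gave 2, with 0 higher. Both against untreated still gave 4, but all 4 were lower, with Ramp3 gone and Ace added at −1.17. Over all measured genes, 1.49%, 1.44% and 2.74% passed 2-fold in these comparisons, in the order named. Of 380 single ratios under an alternative, 336 moved by less than the yardstick, 44 by more, and 0 of those at least 2-fold changed sign. Many of the 336 could not move, so the tally does not measure stability. Leaving out probe sets open to related genes, the choice made after seeing the data, removed no brightest probe set, and its 50 ratios were unchanged. A lower floor reaches only genes with a floored signal, and averaging probe sets leaves genes with 1 probe set as they were. Ramp3 stayed at least 2-fold higher in the 8 alternatives that gave a value for FGF2 against untreated, from 1.55 to 2.98 on the log2 scale. The lower floor, averaging of its only probe set and leaving out probe sets open to related genes could not change it. Agt ranged from −2.81 to −0.35 there, and Ramp1 from −1.08 to −0.36, at least 2-fold in 4 of 8. Of those 4 for Ramp1, only quantile normalization gave a new value (−1.06), and the others could not change it. The −0.36 came from averaging with probe sets under the floor on every array. For both against IL-17A, Agt was at 0.00 under the 75th percentile floor. The counts over all measured genes that stand beside these depended on the floor too: for FGF2 against untreated, 58 upward and 118 downward past 2-fold became 29 and 29 under the 75th percentile floor, 39 and 59 with the floor added to the signal, and 214 and 439 under the 25th percentile floor. For both against untreated, 111 and 212 became 56 and 58, 76 and 132, and 295 and 618. Dim signals limit Agt, Ace, Edn2 and Ramp1. They also limit the size of the Ramp3 ratios, as its untreated and IL-17A arrays were dim. Its ratio for both against untreated was 2.58, and 1.24 under the 75th percentile floor. No paired analysis was possible because each group has 1 array and no result comes from a test.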
